A study of Mus musculus with 2 samples.

Results

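The genes described here are the colony-stimulating factor ligands Csf1 and Il34 and the receptors Csf1r, Csf2ra, Csf2rb and Csf3r, chosen by symbol as a set of ligands and receptors. All 6 were among the 31053 genes of the files. Cells of mouse retina were sequenced singly after selection with magnetic beads that bind CD11b, an integrin that myeloid cells such as microglia display. The first library came from the pooled retinas of 6 wild-type C57BL/6 pups with oxygen-induced retinopathy (OIR), kept in 75% oxygen from postnatal day 7 to day 12, returned to room air and killed at day 17. The second, the control, came from 6 pooled wild-type C57BL/6 pups of the same age. With 1 library from 1 pool in each group, differences between them could not be checked against replicates and were not tested. The 95% intervals below reflect the error of counting molecules and nothing else.

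The macrophage colony-stimulating factor Csf1 and Il34 are the ligands of the tyrosine kinase receptor Csf1r, on which microglia depend for survival and proliferation. In the brain of the mouse, Il34 comes mainly from neurons and Csf1 from glia and microglia. Csf2ra is the ligand-binding chain of the receptor for granulocyte-macrophage colony-stimulating factor, and Csf2rb is the signalling chain that this receptor shares with those for interleukins 3 and 5. Csf3r is the receptor for granulocyte colony-stimulating factor and is best known from neutrophils.

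The OIR library held 49773742 UMIs (unique molecular identifiers, each tagging 1 captured RNA molecule) in 7283 barcodes, and the control library 50081145 in 10826. After filtering, 6136 OIR cells and 8582 control cells remained, with medians of 2810 and 1654 UMIs. The labels call the cells retinal microglia, but rod-like cells made up 58.0% of OIR cells and 77.0% of control cells, and microglia-like cells 660 (10.8%) and 845 (9.85%). Classes were named from marker lists. The microglia-like cells held all 10 microglia markers in both libraries, at a summed level of 9337 CPM (UMIs of a gene per 1000000 UMIs of the class) in OIR and 18381 CPM in control. Their 9 border macrophage markers summed to 734 CPM in OIR and 96.9 CPM in control, and 3 of the 9 were at 0 in control. The libraries shared 89 barcodes. In 71 of these pairs, one barcode held fewer than 2% of the UMIs of the other (median 1.08%), with the deeper one in OIR in 55 pairs and in control in 16. Leaving out all shared barcodes moved no microglia-like value below by more than its interval.

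Csf1 (ENSMUSG00000014599) lies on the minus strand at chr3:107741048-107760469 of GRCm38 (mm10), and Il34 (ENSMUSG00000031750) also on the minus strand, at chr8:110741829-110805924. Csf2ra (ENSMUSG00000059326) is at chr19:61223957-61228429 on the minus strand, Csf2rb (ENSMUSG00000071713) at chr15:78325752-78353847 on the plus strand and Csf3r (ENSMUSG00000028859) at chr4:126024550-126044440 on the plus strand. GENCODE annotates all of them as protein-coding. Csf2rb has the close paralog Csf2rb2 nearby. How the authors' counting treated reads that fit both genes is not shown here, so both are uncertain to that extent. Promoter sequences are shown for 3 genes, Csf1 (higher in OIR microglia-like cells), Csf3r (lower) and Csf2ra (present in neurons too). Given are the 250 bases before the RefSeq start (GRCm38.p6). They run 5′ to 3′ on the gene's strand, with capitals marking matches on either strand to the kappa B pattern (GGGA, any 4 bases, CC), a loose form of the sequence bound by NF-kB, or to GAGGAA, the core bound by the myeloid factor PU.1.
Csf1, chr3:107760470-107760719, minus strand: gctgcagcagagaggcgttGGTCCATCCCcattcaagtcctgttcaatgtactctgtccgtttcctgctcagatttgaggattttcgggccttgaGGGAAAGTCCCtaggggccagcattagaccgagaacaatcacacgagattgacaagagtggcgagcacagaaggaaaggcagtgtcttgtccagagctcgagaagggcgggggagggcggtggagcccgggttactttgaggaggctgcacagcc
Csf3r, chr4:126024409-126024658, plus strand: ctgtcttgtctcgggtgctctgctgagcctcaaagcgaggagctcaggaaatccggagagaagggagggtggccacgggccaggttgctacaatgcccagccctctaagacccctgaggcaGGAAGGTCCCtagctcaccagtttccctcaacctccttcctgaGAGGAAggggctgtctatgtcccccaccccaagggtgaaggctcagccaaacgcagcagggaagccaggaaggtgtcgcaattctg
Csf2ra, chr19:61228419-61228668, minus strand: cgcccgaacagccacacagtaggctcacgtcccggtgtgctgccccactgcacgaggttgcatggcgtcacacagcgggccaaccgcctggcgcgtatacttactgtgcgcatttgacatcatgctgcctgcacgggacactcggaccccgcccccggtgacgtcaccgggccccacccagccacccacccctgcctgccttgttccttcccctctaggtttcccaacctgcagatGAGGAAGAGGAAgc
The kappa B pattern matched 3 times before Csf1, of which 2 overlap on opposite strands, 1 time before Csf3r and 0 times before Csf2ra. GAGGAA matched 0 times before Csf1, 1 time before Csf3r and 2 times side by side before Csf2ra. The windows end at the RefSeq start, and those of Csf3r and Csf2ra reach into the GENCODE spans given above. Their GAGGAA matches lie wholly or partly inside those spans. Of 32851 promoter windows of the same length, 17.6% hold the kappa B pattern and 23.3% hold GAGGAA. The windows of Il34, Csf1r and Csf2rb are not shown here. TTGCNNAA, a form bound by C/EBP factors, and TGANTCA, bound by AP-1, were in none of the 3 windows and in 9.56% and 6.75% of all windows.

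Most Csf1 molecules of both libraries were in microglia-like cells. Microglia-like cells of the OIR retinas held 609 Csf1 UMIs at 92.2 CPM (interval 85.0 to 99.8), against 124 UMIs at 18.4 CPM (15.3 to 21.9) in control, a log2 ratio of 2.32 (2.04 to 2.61), or 5.01-fold. The log2 ratio was 1.13 at a coarser clustering (resolution 0.5), where 79 OIR and 118 control UMIs remained in the class, since a cluster of 229 OIR and 19 control cells with Mmp12 and neutrophil genes in its lead then went unnamed. Csf1 was the 1 of 5 measured ligand and receptor genes (at least 20 CPM in 1 library) to stand at least 2-fold higher in OIR with an interval that excludes 0, a mark that 5.41% of all 6113 measured genes reached. Only 1.60% of measured genes had a higher ratio. Microglia-like cells held 86.4% of the 705 Csf1 UMIs of the OIR library (interval 83.6 to 88.8) and 68.5% of the 181 of the control library (61.2 to 75.2). These shares follow the number of cells too, since the beads select myeloid cells and the classes differ in size.

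Other cells gave few Csf1 molecules. Müller glia-like cells, which span the retina and support its neurons, had 5.44 CPM in OIR and 6.81 CPM in control (37 and 22 UMIs), and the interval of their log2 ratio, -1.12 to 0.51, holds 0. The endothelial-like cluster had 17.0 CPM in OIR and 22.7 CPM in control (7 and 16 UMIs). Leaving out shared barcodes left 5 UMIs in each library there, so its direction rests on those barcodes. Border macrophage-like cells held 5 Csf1 UMIs in 73 OIR cells (5.69 CPM) and 2 in 14 control cells (24.1 CPM), so their level in OIR lay below that of microglia-like cells in the same library. Neutrophil-like cells had 68.7 CPM in OIR and 59.4 CPM in control (17 and 6 UMIs), but their cluster also carried the 10 microglia markers at 7281 CPM in OIR and 16099 CPM in control, and the part of microglial RNA in that value was not tested. In control, the endothelial-like, border macrophage-like and neutrophil-like levels were thus above the 18.4 CPM of microglia-like cells, on 16, 2 and 6 UMIs. Rod-like cells had 5 UMIs in 3558 OIR cells and 1 in 6608 control cells.

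**Figure D1:**
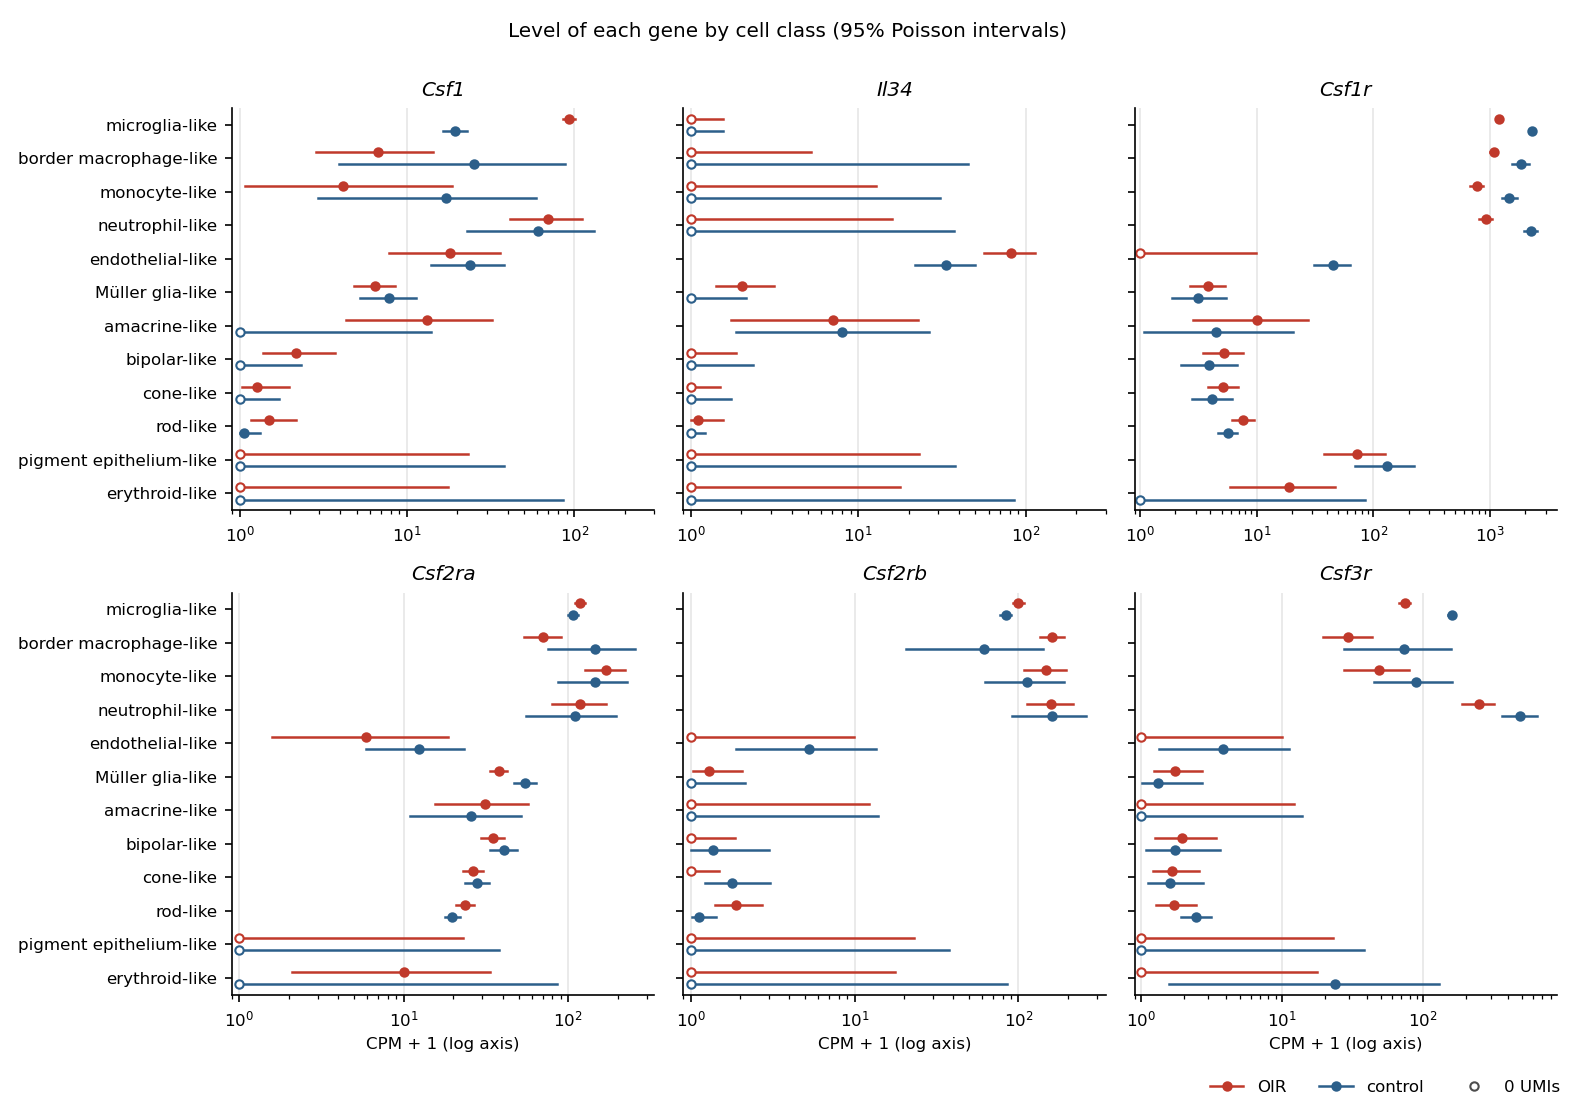
Level of each gene by cell class, as CPM + 1 on a log axis, with OIR (red) above control (blue) in each class, 95% Poisson intervals as lines and open points for classes with 0 UMIs. Csf1, Csf1r, Csf2rb and Csf3r are highest in myeloid classes, Il34 in the endothelial-like cluster, and Csf2ra also lies between 22.5 and 36.8 CPM in OIR and between 18.7 and 53.9 CPM in control in the 5 neural and glial classes.

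Il34 was not detected in microglia. No Il34 UMI was found in the 660 OIR or the 845 control microglia-like cells, which allows up to 0.454 CPM in OIR and 0.445 CPM in control, counting 3 UMIs as the limit, nor in any border macrophage-like, monocyte-like or neutrophil-like cell. The endothelial-like cluster, which also carries pericyte markers, held 33 of 45 Il34 UMIs in OIR (73.3%) and 23 of 26 in control (88.5%). Its 16 OIR cells had 80.1 CPM (55.1 to 112) and its 47 control cells 32.6 CPM (20.7 to 48.9), a log2 ratio of 1.30 (0.48 to 2.13). With at most 5% mitochondrial UMIs, 27 UMIs stood in OIR against 0 in control, for which the limit of 3 counts gives a log2 ratio of 2.97. In that cluster 5.92% of 7044 measured genes were at least 2-fold higher in OIR with an interval that excludes 0.

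The cluster's make-up bears on the Il34 value. Among its cells led by endothelial markers, Il34 was at 73.7 CPM in 11 OIR cells (27 UMIs) and 19.4 CPM in 30 control cells (10 UMIs), a log2 ratio of 1.92 (0.83 to 3.14). In its few cells led by pericyte markers it was at 138.5 CPM in 3 OIR cells (6 UMIs) and 115.8 CPM in 6 control cells (13 UMIs). The intervals of the 2 kinds of cell overlap in OIR (50.8 to 302 CPM for the pericyte-led, 48.6 to 107 CPM for the endothelial-led) and lie apart in control (61.7 to 198 CPM and 9.32 to 35.7 CPM). The named neuronal classes and Müller glia-like cells gave few Il34 UMIs in these bead-selected libraries, in which no class was named for ganglion cells. Müller glia-like cells held 7 UMIs in OIR and 0 in control, rod-like cells 1 and 0, and bipolar-like and cone-like cells 0 in each. Amacrine-like cells held 2 in each library, at 6.05 CPM in 28 OIR cells and 7.01 CPM in 69 control cells.

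**Figure D2:**
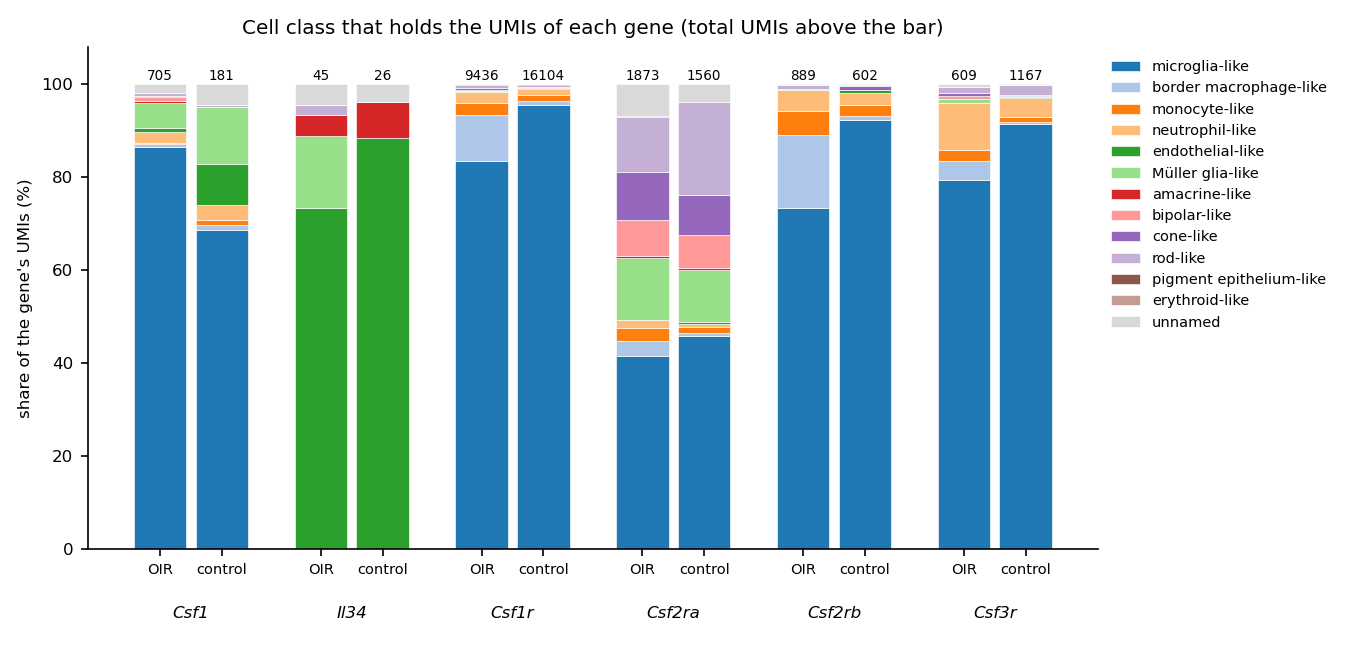
Share of the UMIs of each gene held by each cell class (stacked bars, per cent), OIR left and control right, with the total UMIs of the gene above each bar. Microglia-like cells hold 86.4% of Csf1 UMIs in OIR and 68.5% in control but 41.5% and 45.7% of Csf2ra UMIs, and the endothelial-like cluster holds most Il34 UMIs.

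Csf1r (ENSMUSG00000024621, chr18:61100598-61132149, plus strand), the receptor for both ligands, was lower in OIR. Microglia-like cells had 7869 Csf1r UMIs at 1191 CPM (1165 to 1218) in OIR and 15385 at 2284 CPM (2248 to 2320) in control, a log2 ratio of -0.94 (-0.98 to -0.90), and 93.1% of measured genes had a higher ratio. The microglia markers were lower to a like degree. Csf1r stood at 12.8 UMIs per 100 UMIs of the 10 microglia markers in OIR and at 12.4 in control.

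Csf1r was lower in OIR in the other myeloid clusters as well, as were the microglia markers in them. Border macrophage-like cells had 1070.2 CPM in OIR and 1831 CPM in control (log2 ratio -0.78, interval -1.02 to -0.52), with microglia markers at 3386 CPM in OIR and 8060.1 CPM in control, monocyte-like cells 765 CPM and 1460.1 CPM, and neutrophil-like cells 918 CPM and 2216 CPM. The last 2 classes are small (29 OIR and 12 control monocyte-like cells, 17 OIR and 10 control neutrophil-like cells), and their clusters also held microglia markers, at 3808 CPM in OIR and 8207 CPM in control for the monocyte-like one. Most Csf1r UMIs of the monocyte-like cluster, 183 in OIR and 164 in control, came from 6 OIR and 4 control cells led by microglia markers. In its cells led by monocyte markers Csf1r was at 408 CPM in OIR and 500.1 CPM in control, and the interval of the log2 ratio, -1.09 to 0.56, holds 0. Border macrophage-like cells took 9.96% of all Csf1r UMIs in OIR, where they numbered 73, and 0.944% in control, where they numbered 14. After each cell was thinned to 1500 UMIs, 398 of 572 OIR microglia-like cells (69.6%, interval 65.6 to 73.3) and 730 of 786 control cells (92.9%, 90.8 to 94.6) had a Csf1r UMI. At full depth it was 79.4% of OIR cells and 95.6% of control cells. As a background level, thinned rod-like cells, which should lack the gene, had a Csf1r UMI in 0.855% of OIR and 0.691% of control cells.

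Outside the myeloid classes, Csf1r was scarce and its proportion to the microglia markers varied. Rod-like cells held 13.4 Csf1r UMIs per 100 marker UMIs in OIR and 11.2 in control, bipolar-like cells 12.9 and 9.64, and the endothelial-like cluster 0 UMIs in OIR and 11.0 per 100 in control, where its 31 UMIs came from 3 cells. Müller glia-like cells held 7.20 per 100 in OIR and 5.43 in control, unnamed cells 3.41 and 7.29, and erythroid-like cells 44.4 in OIR, on 4 Csf1r UMIs. In the endothelial-like cluster 14.5% of 7044 measured genes were at least 2-fold lower in OIR with an interval that excludes 0. Pigment epithelium-like cells had the highest proportion in both libraries. They held 12 Csf1r UMIs in 11 of 45 OIR cells (71.7 CPM) and 13 in 8 of 31 control cells (129.7 CPM), while 8 of the 10 microglia markers were at 0 in both libraries. That is 46.2 Csf1r UMIs per 100 marker UMIs in OIR and 144 in control. Hmgxb3, which overlaps Csf1r on the opposite strand, had 2 UMIs in these OIR cells and 0 in these control cells. The counts are small, and the interval of the log2 ratio between libraries, -2.12 to 0.39, holds 0.

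The receptor subunits for GM-CSF were near their control level over all microglia-like cells, but not in every cluster. In microglia-like cells, Csf2ra was at 118 CPM (109 to 126) in OIR and 106 CPM (98.2 to 114) in control, a log2 ratio of 0.15 (0.0035 to 0.30). Csf2rb was at 98.7 CPM (91.3 to 107) in OIR and 82.5 CPM (75.8 to 89.7) in control, a log2 ratio of 0.26 (0.092 to 0.42), and it stood at 0.018 with every cell weighted equally and at -0.063 at a coarser clustering. Both intervals exclude a 2-fold difference. In the microglia-like clusters not led by microglia markers the log2 ratio was 1.44 (0.71 to 2.29) for Csf2rb and 0.91 (0.35 to 1.54) for Csf2ra, on 15 and 26 control UMIs. Of these cells, 131 of 147 in control but 98 of 478 in OIR were in 1 cluster, led by Gng10. In that cluster Csf2rb had 3 UMIs in each library, and Csf2ra a log2 ratio of 1.58 (0.20 to 3.11). In the clusters led by Spp1 and by Birc5 the intervals of both genes hold 0. The pool's 5576 measured genes had a median of 0.30. Of them, 7.28% had a higher ratio than Csf2rb and 17.5% than Csf2ra. The paralog Csf2rb2, which in the mouse encodes the beta chain specific to interleukin 3, was at 42.1 CPM in OIR and 26.0 CPM in control (log2 ratio 0.70, interval 0.42 to 0.98). In OIR, 186 of 660 microglia-like cells held UMIs of both Csf2ra and Csf2rb, and in control 204 of 845 did. Csf2ra was detected in 299 OIR and 385 control cells, and Csf2rb in 257 and 335. These counts are at full depth, which differs between cells, so they do not show that the 2 genes go together or differ between libraries.

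In border macrophage-like cells these subunits pointed in opposite directions. There Csf2rb was at 159 CPM (134 to 188) in OIR and 60.2 CPM (19.6 to 141) in control, on 140 and 5 UMIs, a log2 ratio of 1.40 (0.15 to 3.05). Csf2ra was at 69.4 CPM in OIR and 144.6 CPM in control, on 61 and 12 UMIs, a log2 ratio of -1.06 (-1.97 to -0.029). That ratio was -2.79 at resolution 2 and -3.87 with classes from markers in each cell, each with 2 control cells left, of which the second had 0 Csf2ra UMIs in control and takes 3 in their place. Among all 6697 measured genes of this class, 3.31% stood higher in OIR by 2-fold or more with an interval that excludes 0, and 5.51% stood lower by as much. Only 14 control cells stand behind these ratios. Their marker levels also differed, with border macrophage markers at 14081 CPM in OIR and 3675 CPM in control and microglia markers at 3386 CPM and 8060.1 CPM. The part of the cells' make-up in the ratios was not tested.

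Csf2ra was the receptor gene that neurons and glia shared with myeloid cells. Müller glia-like cells had 36.8 CPM (32.3 to 41.6) in OIR and 53.9 CPM (46.2 to 62.5) in control, bipolar-like cells 33.7 CPM and 39.6 CPM, cone-like cells 25.5 CPM and 27.0 CPM, and rod-like cells 22.5 CPM and 18.7 CPM. The rod-like level was 19.2% of the microglia-like level in OIR and 17.7% in control. The 10 microglia markers stood in rod-like cells at 0.530% and 0.226% of their microglia-like level, so Csf2ra in rods exceeded the proportion in which microglial RNA was found there. Csf2rb did not share this breadth. Over the 5 neural and glial classes it was at most 0.901 CPM in OIR and 0.794 CPM in control.

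Leaving aside the amacrine-like cells (10 OIR and 7 control UMIs), the order of Csf2ra in both libraries was Müller glia-like, bipolar-like, cone-like and rod-like. In OIR the intervals of neighbours in that order overlap. In control those of Müller glia-like (46.2 to 62.5 CPM) and bipolar-like cells (32.5 to 47.8 CPM) overlap, while cone-like (22.6 to 31.9 CPM) and rod-like cells (16.7 to 20.9 CPM) each lie apart from the class above. Müller glia-like and rod-like cells lay apart in both libraries. In Müller glia-like cells the log2 ratio was -0.55 (-0.84 to -0.26), but it was -0.15 with predicted doublets kept. The intervals of the ratio in bipolar-like (-0.60 to 0.14) and cone-like cells (-0.41 to 0.25) hold 0.

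Csf3r was lower in OIR in both classes that carry it most. Microglia-like cells had 483 Csf3r UMIs at 73.1 CPM (66.7 to 79.9) in OIR and 1067 at 158 CPM (149 to 168) in control, a log2 ratio of -1.12 (-1.27 to -0.96). It was the 1 of 5 measured ligand and receptor genes at least 2-fold lower in OIR with an interval that excludes 0, among 5.61% of all measured genes. It no longer reached 2-fold with classes from markers in each cell (-0.95) or over the microglia-like clusters led by microglia markers (-0.77). The 10 microglia markers of this class were lower too, at 9337 CPM in OIR and 18381 CPM in control. How far the Csf3r difference goes with them was not tested. Neutrophil-like cells had 247 CPM (189 to 317) in OIR and 485 CPM (359 to 641) in control, on 61 UMIs in 17 OIR cells and 49 in 10 control cells, beside the difference in microglia markers given above for this cluster. In border macrophage-like and monocyte-like cells the intervals of the Csf3r ratio hold 0. The thinned share of microglia-like cells with a Csf3r UMI was 8.39% (6.25 to 11.0) in OIR and 19.7% (17.0 to 22.7) in control, against 0.171% and 0.242% of rod-like cells.

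Within the microglia-like class, Csf1 was uneven. The class held 9 clusters, found without the ligand and receptor genes, which are called here by their leading gene. Of these, 4 had at least 2 microglia markers among their 10 leading genes (the Cxcl10-, P2ry12- and Rhob-led ones among them, with 182 OIR and 698 control cells over all 4). The other 5 (Birc5-, Gng10-, Hmox1-, Mmp12- and Spp1-led) held 478 OIR and 147 control cells. The Mmp12-led cluster had 101 OIR cells and no control cell, the Hmox1-led one 99 OIR cells and 1 control cell, so library and cell state cannot be told apart in them.

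The Mmp12-led cells had Csf1 at 135 CPM (120 to 152). The Spp1-led cells had 117 CPM (102 to 134) in 116 OIR cells and 43.8 CPM (14.2 to 102) in 9 control cells, and Csf1 was itself among the 10 leading genes of that cluster. The other OIR clusters lay lower, between 5.30 CPM in the Gng10-led cells (1 UMI) and 66.6 CPM in the Cxcl10-led cells. Spp1 and Lpl, which microglia are known to express in injury and disease, were among the 10 leading genes of both the Mmp12-led and the Spp1-led cluster.

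The higher Csf1 was not limited to those clusters. In the 4 marker-led clusters together it was at 51.8 CPM in OIR and 18.5 CPM in control (69 and 117 UMIs), a log2 ratio of 1.48 (1.03 to 1.92). It was at 66.6 CPM in OIR and 29.9 CPM in control in the Cxcl10-led cluster (26 and 70 UMIs). In the Rhob-led one it was at 61.4 CPM and 13.7 CPM, on 7 UMIs in 22 OIR cells and 25 in 259 control cells. Both intervals of the ratio exclude 0. In the P2ry12-led cluster, 1 OIR and 3 control UMIs allow no ratio. The Gng10-led cluster, not marker-led, held 1 UMI in 98 OIR cells and 2 in 131 control cells, which allow no ratio either. Neutrophil markers in the Cxcl10-led cells summed to 897 CPM in OIR and 0.427 CPM in control. Their part in the Csf1 value of that cluster was not tested.

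Csf1 molecules were spread unevenly over cells. Csf1 was detected in 175 of 660 OIR cells (26.5%) and 78 of 845 control cells (9.23%), and after thinning to 1500 UMIs in 8.04% (5.95 to 10.6) and 1.78% (0.977 to 2.97). The 10 OIR cells with most Csf1 UMIs held 31.0% of them, up to 26 in a cell, and the 10 control cells 31.5%, up to 8 in a cell. Of the Csf1-positive microglia-like cells, 173 of 175 in OIR and 78 of 78 in control also held a Csf1r UMI, beside 79.4% of all OIR and 95.6% of all control microglia-like cells. These shares are at full depth, and the Mmp12-led and Spp1-led OIR cells were deep (medians of 17645 and 14224.5 UMIs) and the Gng10-led and Hmox1-led OIR cells shallow (1665 and 2263), so they do not show that the 2 genes go together. In Müller glia-like cells 2 of 25 Csf1-positive cells in OIR and 1 of 20 in control did.

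**Figure D3:**
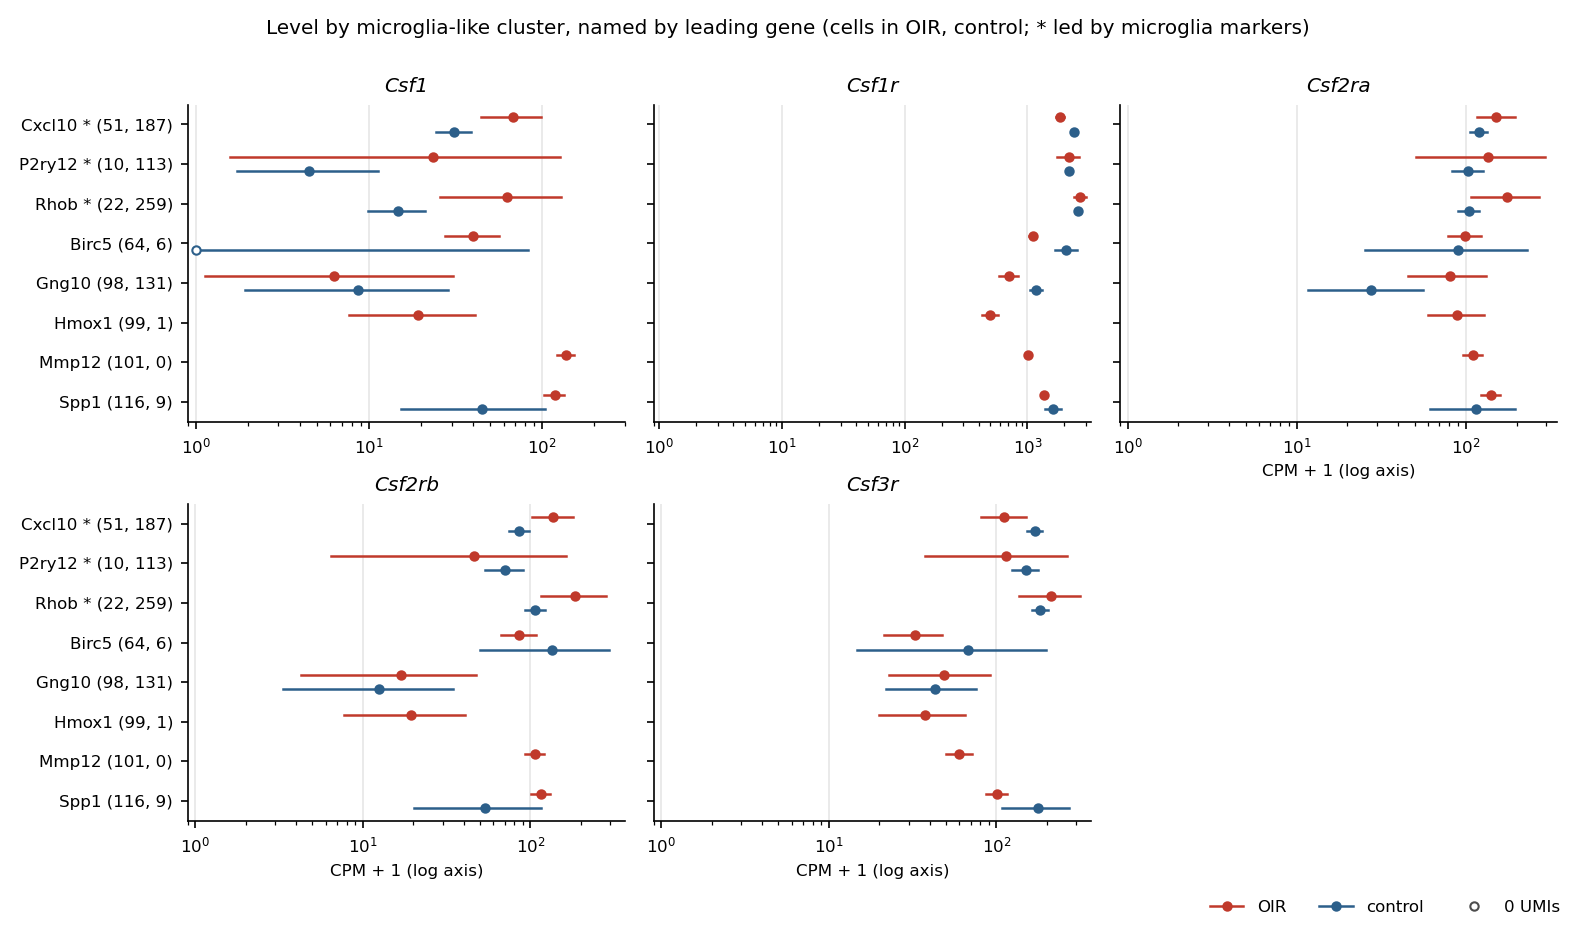
Level of 5 genes in 8 of the microglia-like clusters, as CPM + 1 on a log axis, with OIR (red) above control (blue), 95% Poisson intervals as lines and no point where a library has fewer than 5 cells of a cluster. Csf1 in OIR is highest in the Mmp12-led (135 CPM) and Spp1-led (117 CPM) clusters, and Csf1r is nearly level between the libraries in the Rhob-led and P2ry12-led clusters.

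The receptors varied differently across these clusters. Csf1r was near its control level in the Rhob-led cells, at 2668 CPM in OIR and 2593 CPM in control (log2 ratio 0.041, interval -0.13 to 0.21), and in the P2ry12-led cells, at 2163 CPM in OIR and 2173 CPM in control (-0.0068, interval -0.32 to 0.29). These clusters held 22 and 10 OIR cells. It was lower in OIR in the Cxcl10-led cells (1839 CPM in OIR, 2391 CPM in control), the Spp1-led cells (1371 and 1613 CPM), the Gng10-led cells (706 and 1177 CPM) and the Birc5-led cells (1108 and 2076 CPM). The Hmox1-led OIR cells had the lowest level, 495 CPM. Over the 4 marker-led clusters the log2 ratio was -0.62 (-0.68 to -0.55), and over the other 5 it was -0.33 (-0.45 to -0.20), both nearer 0 than the -0.94 of the whole class, in which the 2 kinds of cluster had different shares.

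Csf3r was at 211 CPM in OIR and 180.3 CPM in control in the Rhob-led cells, where the interval of the ratio (-0.44 to 0.82) holds 0, and at 110.2 CPM in OIR and 167.7 CPM in control in the Cxcl10-led cells (interval of the log2 ratio -1.10 to -0.15). Over the 4 marker-led clusters its log2 ratio was -0.77 (-1.05 to -0.50). Csf2rb was higher in OIR in the Rhob-led cells (184 CPM in OIR, 105 CPM in control) and the Cxcl10-led cells (135.8 and 84.5 CPM), and its level in the Hmox1-led OIR cells was 18.2 CPM. Csf2ra stood between 79.6 and 176 CPM in every OIR cluster. The cycling Birc5-led OIR cells also carried border macrophage markers, at 3391 CPM in OIR and 44.6 CPM in control, with microglia markers at 7568 CPM and 17498 CPM. Their part in the Csf1 level of 39.0 CPM there was not tested, and border macrophage-like cells of the same library had 5.69 CPM.

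**Figure D4:**
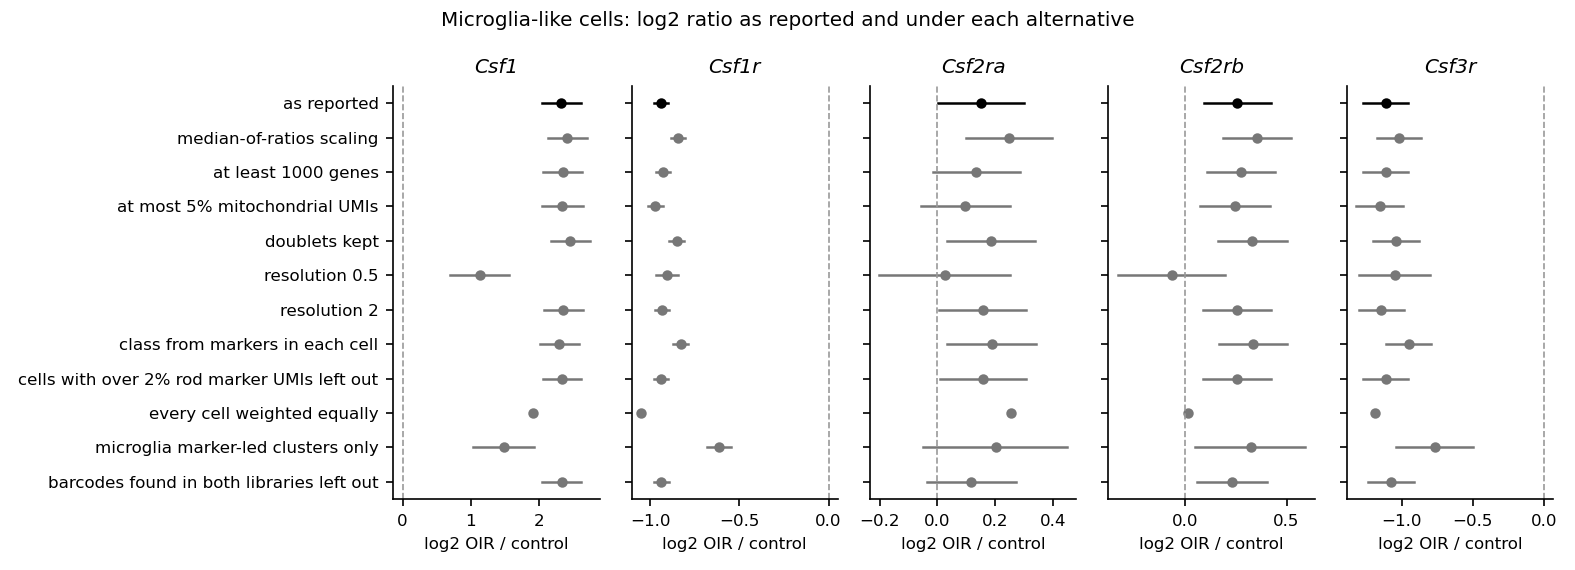
The log2 ratio of OIR over control in microglia-like cells for 5 genes (horizontal axes, 95% intervals as lines, none for equal weights), as reported (black) and under each alternative (grey). Csf1 stays above 0 and Csf1r and Csf3r below 0 under every setting shown, while Csf2rb lies at -0.063 at resolution 0.5.

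The genes around these receptors were described in 6 lists, in microglia-like cells, counting genes at least 1.5-fold apart. Of all 6113 measured genes 30.1% were that far apart, 733 of them higher and 1110 lower in OIR, with a median log2 ratio of -0.11. Of the 24 CSF1R signalling proteins, 19 were measured, 0 higher and 8 lower, with a median of -0.47. The lowest were Pik3r1 (95.4 CPM in OIR, 225 CPM in control, log2 ratio -1.24), the regulatory subunit of PI3 kinase, the adaptor Dok1 (24.1 and 56.7 CPM, -1.24) and the PI3 kinase subunit Pik3cd (31.3 and 67.7 CPM, -1.11). Tyrobp, the adaptor that couples Trem2, was at 3654 CPM in OIR and 3322 CPM in control.

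Of the 13 myeloid transcription factors all were measured, 0 higher and 9 lower, with a median of -0.95. The lowest were Cebpa (143 CPM in OIR, 374 CPM in control, log2 ratio -1.39), Ets1 (35.7 and 84.3 CPM, -1.24) and Sall1, the factor that maintains microglial identity (109 and 257 CPM, -1.23). Spi1, which encodes PU.1, was at 361 CPM in OIR and 428 CPM in control (-0.25). Sall1 was also a marker used to name the class, and Cebpa was among the 10 leading genes of the Rhob-led cluster. Over the 4 marker-led clusters alone 8 of 13 were lower, with a median of -0.71, and 6 of 19 signalling proteins were lower. There 24.4% of 6424 measured genes were at least 1.5-fold apart, 893 higher and 673 lower in OIR, with a median of 0.014.

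The ligands of the other receptors were nearly absent from microglia-like cells. Csf2, Csf3, Il3 and Il5 had 0 UMIs in the microglia-like cells of both libraries, and Kitl and Flt3l had 21 to 24 UMIs in each library, so none of the 6 related ligands was measured. Of 8 related receptors 2 were measured, Csf2rb2 (higher) and Trem2, at 1919 CPM in OIR and 2218 CPM in control (log2 ratio -0.21). Of 12 genes of signalling through the beta common and G-CSF receptors, 6 were measured, 1 higher and 1 lower. They were the kinase Pim1 (46.6 CPM in OIR, 27.2 CPM in control, log2 ratio 0.78) and the feedback inhibitor Socs3 (231 and 557 CPM, -1.27), and the kinase Jak1 had a ratio of -0.15.

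Of 10 growth and early response genes downstream of Csf1r, 8 were measured, 2 higher and 3 lower. Those lower were the early response factors Egr2 (106 CPM in OIR, 249.6 CPM in control, log2 ratio -1.24), Egr1 (1477 and 2935 CPM, -0.99) and Fos (1970.1 and 3318 CPM, -0.75). Those higher were Pcna (0.75) and Cdk4 (0.66), of DNA replication and the cell cycle. Neither was 1.5-fold higher over the 4 marker-led clusters alone, where 0 of 8 were, and the cycling Birc5-led cluster held 64 OIR and 6 control cells. The lists were put together with earlier results of these data known.

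**Figure D5:**
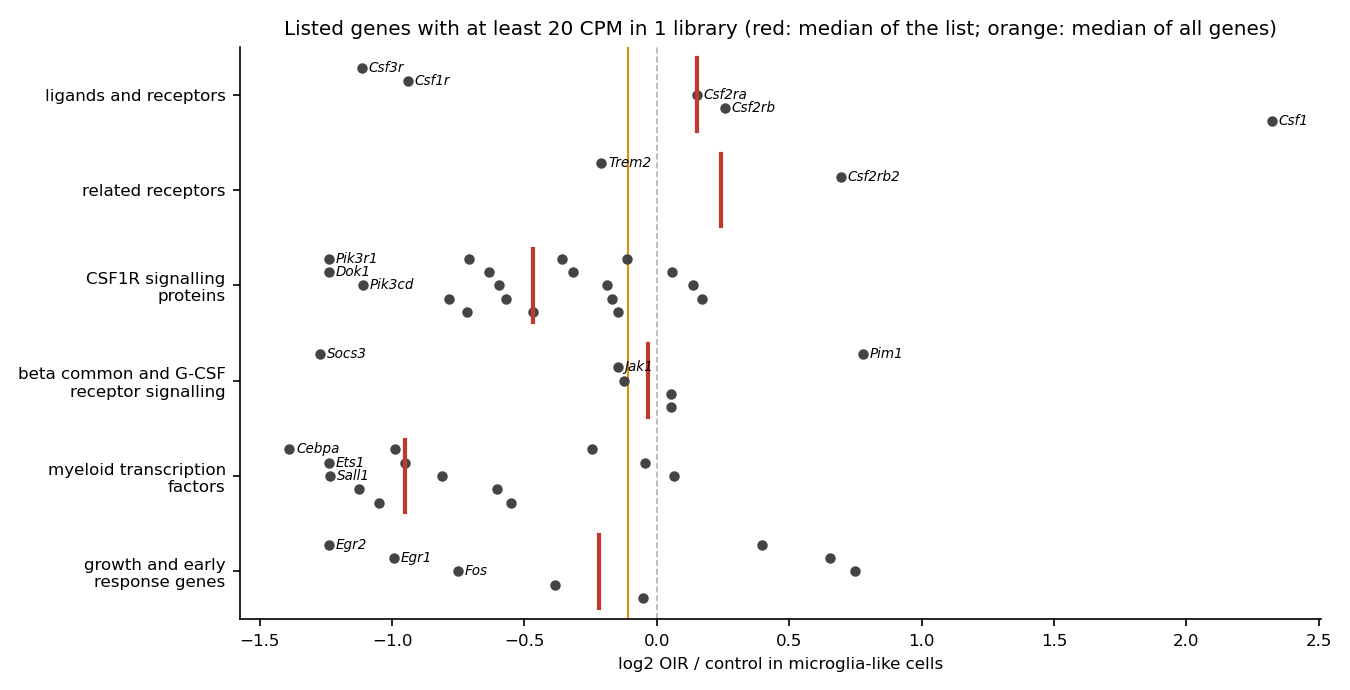
The log2 ratio of OIR over control in microglia-like cells for each listed gene with at least 20 CPM in 1 library (points), with the median of each list (red) and of all genes (orange, -0.11); points are spread vertically for legibility. The myeloid transcription factors (median -0.95) and CSF1R signalling proteins (median -0.47) lie left of the median of all genes, and Csf1 (2.32) lies farthest right.

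Genes with the most similar pattern were sought over the 12 class profiles with at least 50 cells, by Pearson's r of log2(CPM + 1) among 9580 genes. This is a description, since the profiles share libraries and background RNA. For Csf1 they were Capg (r = 0.957), Smim3 (0.948) and Hscb (0.946), and Capg, an actin-capping protein of macrophages, was at 210 CPM in OIR and 58.9 CPM in control microglia-like cells. For Csf1r they were Cd180, Sla and Fli1 (each 0.998), for Csf2rb Sp140, Lrrc25 and Arl11 (0.994 to 0.996), and for Csf3r Bin2, Il10ra and Dusp2 (0.994 to 0.995). For Csf2ra they were Eya4 (0.976), Psap (0.967) and Twf2 (0.964). For Il34 they were Rgs4, Glra3 and Col12a1 (0.985 to 0.987), but its main source, the endothelial-like cluster, had too few cells to enter the profiles, so these follow 7 UMIs in OIR Müller glia-like, 2 in control amacrine-like and 1 in OIR rod-like cells.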

How the data were processed

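Single cells of retina were captured on the 10x platform, and the authors deposited a filtered matrix of UMI counts per gene and barcode for each library, made with Cell Ranger 3.0.2 against mm10 per the submitters' processing notes; whether counting used strand is not given in the sources used here. Barcodes passed from 500 genes upward if mitochondrial UMIs were no more than 10%, 6516 of 7283 in OIR and 9454 of 10826 in control. The doublet caller of scanpy 1.11.5 marked 1 barcode in OIR and 0 in control at its automatic threshold, so the barcodes with the highest scores were removed instead, at 0.8% for each 1000 barcodes (424 in OIR, 938 in control). Cells were clustered without the ligand, receptor and listed genes (2000 variable genes, 30 components, 20 neighbours, Leiden resolution 1), and the myeloid clusters were clustered again. A cluster was named where at least 3 markers of a class were detected in 10% of its cells and led by 0.5 on the log2 scale, a rule set with the data at hand. The endothelial-like cluster also holds pericyte markers, the amacrine-like one horizontal cell markers, and the monocyte-like one a few lymphoid and microglia-marker cells; 173 OIR and 114 control cells stayed unnamed. Values of 1 microglia-like cluster by itself are not reported here.

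UMIs were summed by class and library. CPM have exact Poisson intervals, log2 ratios exact conditional binomial intervals, and shares exact Clopper-Pearson intervals (scipy 1.17.1). Ratios take 3 UMIs in place of 0, and none is given where a library had too few cells or UMIs. For shares of cells, each cell was thinned to 1500 UMIs, which left out 88 OIR and 59 control microglia-like cells. The genes described, the lists and the markers were chosen with earlier results of these data known. Named from each list were the 3 measured genes with the largest ratio in either direction, and for likeness the 3 with the highest correlation; Tyrobp, Spi1, Trem2, Pcna and Cdk4 were named after their values were seen. Positions come from GENCODE vM21 and promoters from RefSeq. The step for ratio intervals was tested on simulated sums of microglia-like cells. These were drawn from a Poisson model, so class naming and unevenness between cells were not covered. Alternatives were another scaling, stricter cell filters, doublets kept, 2 other resolutions, classes from markers in each cell, equal weight of cells, rod RNA removed, other thinning depths, and lists without the 20 CPM minimum.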

Additional observations from a re-analysis of the deposited data

Results flagged for a closer look

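For 2 receptors the ratio of OIR over control pointed in opposite directions in different cell classes with intervals that exclude 0. The difference between classes was not tested, since each group is 1 library. Csf1r had a log2 ratio of 0.50 in rod-like cells (66 UMIs in OIR, 78 in control) and -0.94 in microglia-like cells. Csf1r in rod-like cells was at 0.555% of its microglia-like level in OIR and 0.204% in control, beside 0.530% and 0.226% for the 10 microglia markers. Csf2ra had a log2 ratio of 0.15 in microglia-like cells, 0.27 in rod-like cells and -0.55 in Müller glia-like cells. The interval in microglia-like cells held 0 under 5 alternatives, among them at least 1000 genes (0.13, -0.017 to 0.28) and the marker-led clusters alone (0.20, -0.049 to 0.45). The Müller glia-like value was -0.15 with doublets kept, where the interval (-0.37 to 0.079) held 0.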

How the results depend on the processing

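Of 144 ratios recomputed under an alternative, 124 kept their direction and moved by less than their interval, 19 moved by more and 1 changed sign. For Csf1 in microglia-like cells (2.32 as reported) the log2 ratio was 1.13 at resolution 0.5, 1.91 with every cell weighted equally and 1.48 over the 4 marker-led clusters, an alternative added after seeing the data. At resolution 0.5 the class held 406 OIR and 824 control cells, since a cluster with both Mmp12 and neutrophil markers (229 OIR and 19 control cells) stayed unnamed. Csf1r (-0.94) was at -0.84 with median-of-ratios scaling, -0.85 with doublets kept, -0.83 with classes from markers in each cell, -1.05 with equal weights and -0.62 over the marker-led clusters. Csf2rb (0.26) changed sign to -0.063 at resolution 0.5 and was 0.018 with equal weights; the cause was not tested. Csf3r (-1.12) was at -0.95 with classes from markers in each cell and -0.77 over the marker-led clusters. Il34 in the endothelial-like cluster (1.30) was at 2.97 with at most 5% mitochondrial UMIs, where 27 OIR UMIs stood against 0 in control, so the value is set by the limit of 3 counts. Of 10 differences in shares, 5 moved with the thinning depth and none changed sign, and of 30 list counts 24 stayed within 1.5 times. Csf2ra in border macrophage-like cells rests on 14 control cells and was at -2.79 at resolution 2 and -3.87 with classes from markers in each cell, where 2 control cells with 0 UMIs remained. No paired analysis was possible because each group is 1 library, and for the same reason no replicate could be left out. Removal of cells rich in rod RNA was not applied to rod-like cells, and the related ligands gave no list counts.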

Other observations

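Some listed genes lay below the level of 20 CPM in both libraries of the microglia-like class, yet their UMIs were unequal. Dok2, an adaptor that restrains tyrosine kinase signalling, had 61 UMIs in OIR and 3 in control. Socs2, a feedback inhibitor of cytokine receptors, had 61 UMIs in OIR and 5 in control, and the replication factor Mcm2 had 84 in OIR and 13 in control. Il3ra, the interleukin 3 receptor chain that pairs with Csf2rb, had 86 UMIs in OIR and 50 in control. These 4 genes were picked after their values were seen. Among the microglia-like clusters that are not marker-led, Csf2rb was at 96.5 CPM in OIR and 35.5 CPM in control, and Csf2ra at 115.7 CPM and 61.5 CPM, on 15 and 26 control UMIs. Of these cells, 131 of 147 in control but 98 of 478 in OIR were Gng10-led. The part of that make-up in the values was not tested.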
